A study of Homo sapiens with 8 samples.

Results

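The genes described here are 35 genes of the lysosome and of autophagy, listed by name, in HCT-116 cells, a human colorectal cancer cell line. They were 7 genes for lysosomal proteases and their partners, 6 for glycosidases, 5 for lipid handling, 5 for lysosomal membrane proteins, 5 for the vacuolar proton pump (V-ATPase), 5 for autophagy, and the transcription factors *TFEB* and *TFE3*. They were 35 of the 20030 genes with a value, and 34 of them were among the 10677 genes that reached 1 FPKM in 2 or more libraries and were tested. FPKM counts the sequenced fragments of a gene after allowing for the length of its transcript and the depth of the library. The cells were transfected with siRNA in 8 RNA-seq libraries, of which 2 had a control siRNA (siNC), 3 an siRNA against *HHEX* (siHHEX), 2 a pair of siRNAs against *YAP1* and *WWTR1*, the gene for TAZ (siYAP/TAZ), and 1 siRNAs for the 4 TEAD factors, *TEAD1* to *TEAD4* (siTEAD1/2/3/4). YAP and TAZ are co-activators of the TEAD transcription factors, and HHEX is a homeobox protein that the study examined as a partner of YAP and TEAD. In the study's methods, each siHHEX library and each siYAP/TAZ library had its own siRNAs, and replicates of 1 knockdown are therefore not repeats of 1 siRNA. Neither the labels nor the methods state separate cultures for this experiment, and the p values then measure only the spread between these libraries. The comparison asks whether the genes of this organelle had other levels after each knockdown. All 3 knockdowns were set against the same 2 siNC libraries.

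Lysosomes break down proteins, sugars and lipids with hydrolases that work at acid pH, which the V-ATPase keeps by pumping protons into the organelle. Autophagy delivers cytoplasmic cargo to lysosomes in vesicles that carry proteins of the LC3 and GABARAP family, and SQSTM1 (p62) tethers ubiquitinated cargo to them. TFEB and TFE3 bind the letters CACGTG, the E-box, in the promoters of many lysosomal genes, and mTORC1 on the lysosomal surface holds them in the cytoplasm when nutrients are plentiful.

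The E-box was searched in windows from 250 bases before to 50 bases after the start of each gene in RefSeq (GRCh38.p14), which held 26 of the 35 members. CACGTG was in 7.26% of the 35116 windows of all genes. Counted by gene, since a gene can have several windows, 8.77% of 27305 genes had it in at least 1 window, and 8 of the 26 members did: *CTSA*, *CTSD*, *GAA*, *NEU1*, *LAMP1*, *CD63*, *MCOLN1* and *ATP6V0D1*. The longer form TCACGTGA, which contains the shorter one, was in 0.98% of all windows, in at least 1 window of 1.18% of the genes and in those of 5 members, *CTSA*, *GAA*, *LAMP1*, *MCOLN1* and *ATP6V0D1*. Both motifs read the same on both strands. The sequences below are shown because they set members that differ in their change side by side. The first 3 genes passed the test in siHHEX, *CTSA* and *LAMP1* passed it in no comparison, *MCOLN1*, *TPP1* and *WIPI1* passed it in siYAP/TAZ, and *TPP1* and *WIPI1* had no CACGTG in their windows. Each run is on the strand of the gene and ends at the base before its start site, with CACGTG in capitals. *GAA* is at chr17:80101501-80101580 on the plus strand, *CTSD* at chr11:1763928-1764007 on the minus strand, *ATP6V0D1* at chr16:67481158-67481237 on the minus strand, *CTSA* at chr20:45891255-45891334 on the plus strand, *LAMP1* at chr13:113297039-113297238 on the plus strand, *MCOLN1* at chr19:7522544-7522623 on the plus strand, *TPP1* at chr11:6619423-6619502 on the minus strand and *WIPI1* at chr17:68457497-68457576 on the minus strand.
GAA: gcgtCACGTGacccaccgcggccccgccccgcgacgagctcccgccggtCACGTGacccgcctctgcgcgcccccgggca
CTSD: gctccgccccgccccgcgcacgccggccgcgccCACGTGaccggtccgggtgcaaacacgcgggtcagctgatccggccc
ATP6V0D1: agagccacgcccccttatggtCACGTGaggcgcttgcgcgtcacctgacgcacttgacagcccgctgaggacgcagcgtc
CTSA: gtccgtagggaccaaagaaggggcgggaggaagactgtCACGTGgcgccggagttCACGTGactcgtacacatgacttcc
LAMP1: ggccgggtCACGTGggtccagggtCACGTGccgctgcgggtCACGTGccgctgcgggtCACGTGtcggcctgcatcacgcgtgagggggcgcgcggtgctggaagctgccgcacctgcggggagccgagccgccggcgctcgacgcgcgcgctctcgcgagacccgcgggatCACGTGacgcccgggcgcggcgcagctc
MCOLN1: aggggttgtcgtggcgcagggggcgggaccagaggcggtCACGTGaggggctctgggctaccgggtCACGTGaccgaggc
TPP1: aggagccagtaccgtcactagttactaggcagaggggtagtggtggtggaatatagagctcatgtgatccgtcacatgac
WIPI1: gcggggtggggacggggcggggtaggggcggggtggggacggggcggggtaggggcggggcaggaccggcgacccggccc
A match of these letters is a description of the window and was not tested as a binding site.

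The printed *LAMP1* run is 200 bases long and the others are 80, so copies per run are not comparable. The *LAMP1* run held 5 copies of CACGTG, those of *GAA*, *MCOLN1* and *CTSA* 2 each, and those of *CTSD* and *ATP6V0D1* 1 each. In the search window, of 1 length for all genes, *LAMP1* had 6 copies, *GAA*, *MCOLN1* and *CTSA* 2 each, and *CTSD* and *ATP6V0D1* 1 each. By level, *LAMP1* was at 101% of its siNC mean in siHHEX and at 94.1% in siYAP/TAZ, and *CTSA* at 109% and 99.7%. *GAA* was at 150% and 152% and *MCOLN1* at 95.0% and 69.2%, and *CTSD* was at 150% and 126% and *ATP6V0D1* at 141% and 100.3%.

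The knockdowns were checked first. *HHEX* was at 8.60 and 9.06 FPKM in siNC and at 3.25, 3.54 and 1.85 FPKM in siHHEX. *YAP1* was at 20.2 and 19.7 FPKM in siNC and 6.90 and 8.39 FPKM in siYAP/TAZ. It was also low in siHHEX 1 (5.77 FPKM) and siHHEX 3 (6.93 FPKM), but not in siHHEX 2 (17.4 FPKM). Of the other targets, *TEAD1* was lower in siHHEX, at 6.99, 10.2 and 5.30 FPKM against 18.3 and 19.0 FPKM in siNC (limma adjusted p = 0.00641, over all tested genes), and *TEAD2* was higher, at 6.50, 8.02 and 7.18 FPKM against 4.10 and 3.47 FPKM (adjusted p = 0.00709). *TEAD4* was lower in siYAP/TAZ, at 12.5 and 13.6 FPKM against 20.3 and 21.3 FPKM (limma adjusted p = 0.0250). The drop of *YAP1* in siYAP/TAZ itself had an adjusted p of 0.0681 in the same fit. *WWTR1* was at 6.80 and 6.72 FPKM in siNC and at 2.64 and 2.58 FPKM in siYAP/TAZ. In siHHEX it lay on both sides of siNC, at 5.12, 6.12 and 8.55 FPKM (limma adjusted p = 0.820). In the single siTEAD1/2/3/4 library, *TEAD1* was at 9.02 FPKM (siNC mean 18.6), *TEAD2* at 2.73 FPKM (3.78) and *TEAD4* at 5.56 FPKM (20.8), but *TEAD3* was at 9.08 FPKM, above its siNC mean of 7.18, which goes against that library's label for this gene. Of the 10 epithelial markers, the keratin gene *KRT8* was the most abundant, at 1591 and 1707 FPKM in siNC and between 1593 and 1757 FPKM in siHHEX, but at 898 and 897 FPKM in siYAP/TAZ (limma adjusted p = 0.00227). Its partner *KRT18* was also lower in siYAP/TAZ, at 376 and 404 FPKM against 900.5 and 917 FPKM (adjusted p = 0.000861), whereas *ELF3* was higher there (log2 fold change 0.81, adjusted p = 0.0257). In siHHEX, *EPCAM* (-0.38, adjusted p = 0.0289) and *KRT18* (-0.29, 0.0348) were lower and *CLDN7* (0.39, 0.0486) and *CDX2* (0.42, 0.0420) higher. Of the colon markers, *CDX2* was at 3.86 to 6.24 FPKM, *CDX1* was at 0 in every library and *VIL1* at no more than 0.0335 FPKM. The 8 leukocyte markers summed to 0.326 and 0.272 FPKM in siNC, 0.142, 0.204 and 1.80 FPKM in siHHEX, 0.953 and 1.56 FPKM in siYAP/TAZ and 0.653 FPKM in siTEAD1/2/3/4. *LYZ* reached the highest level of these (1.52 FPKM, in siHHEX 3), *TYROBP* was at 0 in every library, and *PTPRC* did not pass 0.101 FPKM. The 6 fibroblast markers summed to between 0.726 and 2.80 FPKM, most of it *COL1A1*, and the 4 endothelial markers to no more than 0.221 FPKM. The part of these marker shifts in the changes of the lysosomal genes was not tested.

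The 35 genes together summed to 941 and 939 FPKM in siNC, 1151, 971 and 1098 FPKM in siHHEX, 1000 and 1100 FPKM in siYAP/TAZ and 996 FPKM in siTEAD1/2/3/4. Every knockdown library thus stood above both siNC libraries in this sum. In bulk RNA, a change in level per cell cannot be told apart from a change in the share of cells that express a gene. As a share of all FPKM, however, the sum was 0.270% and 0.271% in siNC and 0.308%, 0.266% and 0.286% in siHHEX, so that siHHEX 2 was below both siNC libraries. The shares in siYAP/TAZ were 0.301% and 0.326% and that in siTEAD1/2/3/4 was 0.290%. The most abundant members in siNC were *PSAP* (119 ± 3.64 FPKM, SD, n = 2), which encodes the precursor of the saposins, *SQSTM1* (96.0 ± 0.50), *LAMP1* (84.7 ± 1.32) and *CD63* (82.2 ± 1.55). The least abundant were *UVRAG*, *TFEB*, *WIPI1* and *TFE3*. *UVRAG*, an activator of the autophagy lipid kinase complex, ranged from 0.625 to 0.940 FPKM, below the filter.

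limma was fitted to log2(FPKM + 1) over the 8 libraries together, with Benjamini-Hochberg adjustment over the 10677 tested genes, and a gene passed at an adjusted p under 0.05. Fold changes on this scale understate the change of genes with low values. In siHHEX, 5 of the 34 tested members were higher (*CTSB*, *CTSD*, *GAA*, *ATP6V0D1* and *SQSTM1*), where 16% of all tested genes were higher, and 1 was lower (*LAMP2*), where 16.9% of all were. In siYAP/TAZ, 2 members were higher (*TPP1* and *WIPI1*), where 6.15% of all genes were, and 1 was lower (*MCOLN1*), where 2.13% of all were. The shares of members that were higher, 14.7% and 5.88%, were thus near those of all genes, and 2.94% were lower in each. In siTEAD1/2/3/4, which had no replicate and no test, *CTSB* was the only member more than 1.5-fold higher on the log2(FPKM + 1) scale (4.15% of all genes) and *NPC2* the only one more than 1.5-fold lower (2.18%). On FPKM itself *TPP1*, at 152% of its siNC mean, was also past 1.5-fold. At the cut-off the study used, more than 2-fold with a p under 0.05, which was taken here as the unadjusted p, 0 members passed in siHHEX (1.63% of all genes) and 0 in siYAP/TAZ (1.57%) on the log2(FPKM + 1) scale. On FPKM itself *WIPI1*, at 236% of its siNC mean in siYAP/TAZ, was past 2-fold, and its log2 fold change there was 1.175 with a pseudocount of 0.1. At an unadjusted p under 0.05 in limma, the only tool run, 10 members passed in siHHEX and 6 in siYAP/TAZ, a smaller share (29.4% and 17.6%) than the 47.2% and 27.3% of all genes.

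Scaling the libraries to equal medians moved these counts. The number of members higher and lower was then 8 and 1 in siHHEX and 1 and 1 in siYAP/TAZ. Of the 10677 tested genes, 2210 were then higher and 1440 lower in siHHEX, and 333 and 345 in siYAP/TAZ. Among all genes, the higher share of the calls went from 48.7% to 60.5% in siHHEX and from 74.3% to 49.1% in siYAP/TAZ, and the median change of all tested genes from -0.0055 to 0.065 and from 0.082 to -0.024 on the log2 scale. The calls also depended on having 2 siNC libraries. Without siNC 1 or without siNC 2, 0 members passed in either knockdown (0.178% or 0.253% of all genes in siHHEX and 0.206% or 0.14% in siYAP/TAZ), with 4 or 6 members at an unadjusted p under 0.05 in siHHEX and 4 or 5 in siYAP/TAZ. Without siHHEX 2, by contrast, 10 members were higher and 2 lower in siHHEX and 4 and 1 in siYAP/TAZ, when 45.3% and 12.3% of all genes passed in either direction. Leaving out siHHEX 1 left 2 higher and 2 lower in siHHEX (19.8% of all genes passed) and 2 and 0 in siYAP/TAZ (5.53%), and leaving out siHHEX 3 left 2 and 1 (23.5%) and 3 and 1 (11.7%). Without siYAP/TAZ 2, 0 members passed in siYAP/TAZ (6 at an unadjusted p under 0.05, and 0.862% of all genes passed), and without siYAP/TAZ 1, *WIPI1* was the only one (8.21%). In siHHEX, 4 were higher and 1 lower without siYAP/TAZ 1 and likewise without siYAP/TAZ 2 (31.6% of all genes).

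The median log2 change of the 34 tested members was 0.12 in siHHEX, 0.14 in siYAP/TAZ and 0.12 in siTEAD1/2/3/4. For all tested genes it was -0.0055, 0.082 and 0.060. For the 2480 tested genes with siNC means from 10.9 to 33.2 FPKM, the interquartile range of the members, it was -0.0085, -0.023 and 0.0059. Median scaling made the members' median 0.19, 0.032 and 0.055. Once the trend of each library with GC content and transcript length was removed (the GC and length correction, described with the GC values), it became -0.0085, 0.061 and 0.027, against 0.00059, -0.020 and 0.0023 for all tested genes and -0.037, -0.12 and -0.046 for those of similar level. The members' median by library was 0.168, -0.012 and 0.160 in siHHEX 1, 2 and 3, so that siHHEX 2 stood apart from the other siHHEX libraries. It was 0.078 and 0.135 in siYAP/TAZ 1 and 2. Between the siNC libraries, the members differed by a median of 0.058 in absolute log2 value, against 0.140 to 0.248 between pairs of siHHEX libraries and 0.205 between the siYAP/TAZ libraries. All siHHEX libraries lay above both siNC libraries for 11 members (33.1% of all tested genes) and below both for 6 (33.8%). Both siYAP/TAZ libraries lay above both siNC libraries for 13 members (42.9% of all) and below both for 3 (24.8%).

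**Figure D1:**
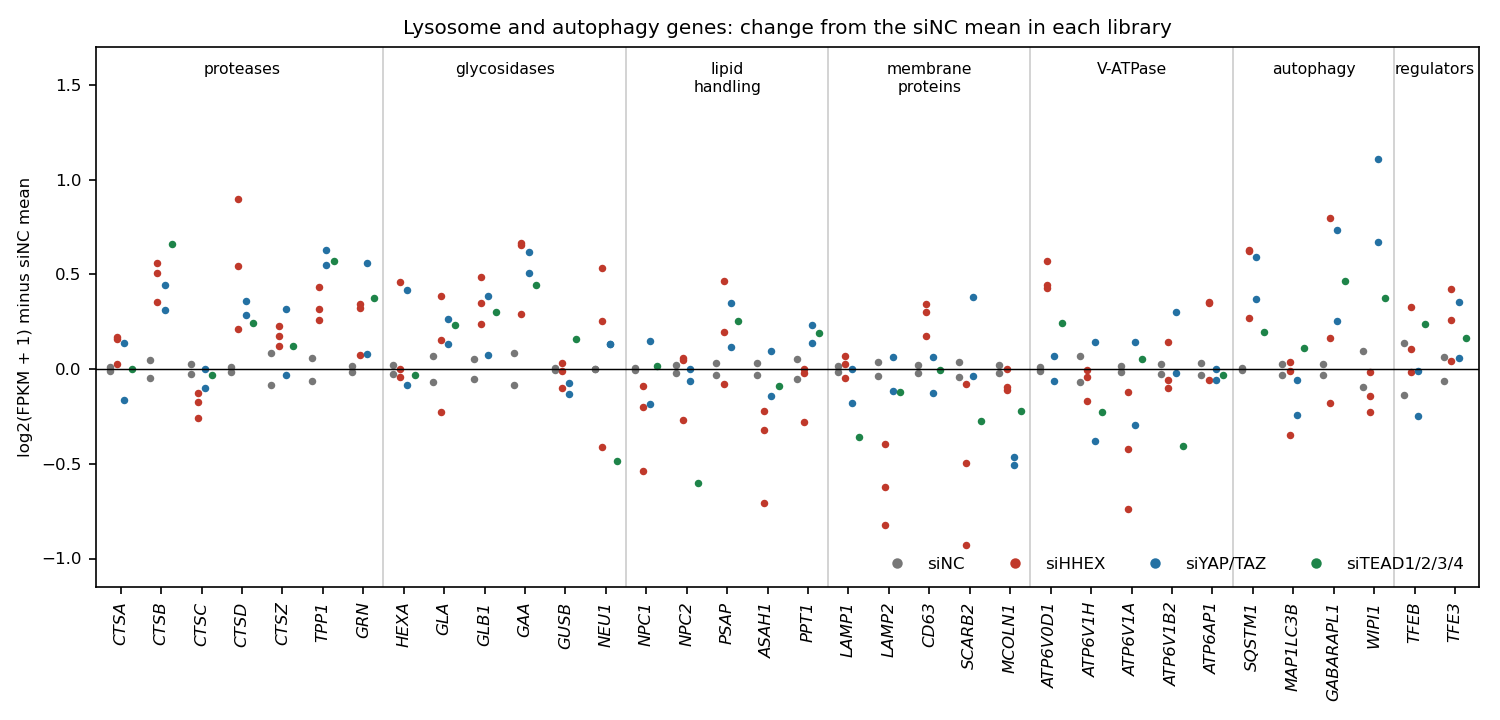
Change of each of the 34 tested members from the siNC mean, as log2(FPKM + 1), in each library (points), with genes grouped by role along the x axis and colours for siNC, siHHEX, siYAP/TAZ and siTEAD1/2/3/4. The siYAP/TAZ points of *WIPI1* are at 0.67 and 1.11, and the siHHEX points of *LAMP2* and *SCARB2* reach furthest down.

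The counts by role stand beside the shares of all genes, 16% higher and 16.9% lower in siHHEX. In siYAP/TAZ these shares were 6.15% and 2.13%. Of the 7 genes for proteases and their partners, 2 were higher in siHHEX, 1 was higher in siYAP/TAZ and 0 were lower in either. *CTSB* encodes cathepsin B, a lysosomal cysteine protease (GRCh38 chromosome 8, 11842524 to 11869533). Its level was 20.5 and 22.0 FPKM in siNC, 27.4, 30.6 and 31.8 FPKM in siHHEX, 29.3 and 26.6 FPKM in siYAP/TAZ and 34.1 FPKM in siTEAD1/2/3/4. Every knockdown library lay above both siNC libraries. In log2 terms the fold change was 0.47 ± 0.119 (SE) in siHHEX (limma adjusted p = 0.0186, between 0.0119 and 0.183 over 14 alternatives, past the threshold in 10) and 0.38 in siYAP/TAZ (adjusted p = 0.0995). *CTSD* encodes the aspartic protease cathepsin D (chromosome 11, 1752752 to 1764573). It was at 40.4 and 41.1 FPKM in siNC, 76.7, 47.3 and 59.8 FPKM in siHHEX, 49.9 and 52.6 FPKM in siYAP/TAZ and 48.4 FPKM in siTEAD1/2/3/4. Again every knockdown library lay above siNC, but the siHHEX libraries spread widely, at 61.2 ± 14.8 FPKM (SD, n = 3). Its log2 fold change in siHHEX was 0.55 ± 0.177 (adjusted p = 0.0411, between 0.00594 and 0.633 over 14 alternatives, past the threshold in 3).

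*TPP1* encodes tripeptidyl peptidase 1, which takes tripeptides off the end of proteins (chromosome 11, 6612768 to 6619448). It was at 11.8 and 12.9 FPKM in siNC, 15.6, 15.0 and 17.0 FPKM in siHHEX, 18.6 and 19.6 FPKM in siYAP/TAZ and 18.9 FPKM in siTEAD1/2/3/4. The libraries were ordered by group, with siNC lowest, siHHEX between and siYAP/TAZ with siTEAD1/2/3/4 highest. In siYAP/TAZ the log2 fold change was 0.59 ± 0.130 (limma adjusted p = 0.0294, between 0.0224 and 0.270 over 14 alternatives, past the threshold in 9) and 0.34 in siHHEX (adjusted p = 0.0547). The difference between these knockdowns, -0.25, did not pass the test (adjusted p = 0.111). *CTSA*, *CTSC*, *CTSZ* and *GRN*, the gene for progranulin, had log2 fold changes of 0.12, -0.19, 0.17 and 0.25 in siHHEX and of -0.01, -0.05, 0.14 and 0.32 in siYAP/TAZ, none of which passed the test. With the GC and length correction, the siHHEX values of *CTSA*, *CTSZ* and *GRN* changed sign, to -0.19, -0.21 and -0.14.

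Of the 6 glycosidases, 1 was higher in siHHEX and 0 passed in siYAP/TAZ in limma (1, *GAA*, at an unadjusted p under 0.05). *GAA* encodes acid alpha-glucosidase, which degrades lysosomal glycogen (chromosome 17, 80101533 to 80119881). It was at 11.0 and 12.5 FPKM in siNC, 19.1, 14.6 and 19.2 FPKM in siHHEX, 17.2 and 18.6 FPKM in siYAP/TAZ and 16.4 FPKM in siTEAD1/2/3/4. All 6 knockdown libraries lay above both siNC libraries. Its log2 fold change was 0.54 ± 0.147 in siHHEX (limma adjusted p = 0.0245, between 0.00491 and 0.487 over 14 alternatives, past the threshold in 6) and 0.56 ± 0.161 in siYAP/TAZ (adjusted p = 0.0620). *GLB1*, the gene for beta-galactosidase, was at 8.47 and 9.19 FPKM in siNC, 12.8, 10.6 and 11.5 FPKM in siHHEX, 9.35 and 11.8 FPKM in siYAP/TAZ and 11.1 FPKM in siTEAD1/2/3/4. siHHEX did not overlap siNC here either, but the log2 fold change of 0.36 in siHHEX had an adjusted p of 0.0741 in limma. *GLA*, the gene for alpha-galactosidase A, was at 26.4 and 24.0 FPKM in siNC, 33.2, 21.4 and 28.1 FPKM in siHHEX, 27.7 and 30.4 FPKM in siYAP/TAZ and 29.7 FPKM in siTEAD1/2/3/4. siHHEX libraries of this gene lay on both sides of siNC. *HEXA*, *GUSB* and *NEU1* had log2 fold changes between -0.10 and 0.17 in both knockdowns. *GUSB* has near-identical pseudogene copies among which reads can be split, and its value is uncertain for that reason.

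None of the 5 genes for lipid handling passed in siHHEX or in siYAP/TAZ in limma, and 1 (*ASAH1* in siHHEX) had an unadjusted p under 0.05. *ASAH1* encodes acid ceramidase, which splits ceramide. It was at 18.5 and 19.3 FPKM in siNC, 16.1, 14.9 and 11.2 FPKM in siHHEX, 20.3 and 17.1 FPKM in siYAP/TAZ and 17.8 FPKM in siTEAD1/2/3/4. All siHHEX libraries lay below both siNC libraries, with a log2 fold change of -0.42 (adjusted p = 0.0707). *NPC1*, which moves cholesterol out of the lysosome, was at 5.22 and 5.25 FPKM in siNC, 4.86, 3.29 and 4.43 FPKM in siHHEX, 5.91 and 4.48 FPKM in siYAP/TAZ and 5.31 FPKM in siTEAD1/2/3/4. It too was below siNC in all siHHEX libraries, with a log2 fold change of -0.28 that did not pass (adjusted p = 0.210). *PSAP* was at 116 and 121 FPKM in siNC, 164, 113 and 136 FPKM in siHHEX, 129 and 152 FPKM in siYAP/TAZ and 142 FPKM in siTEAD1/2/3/4. siHHEX 2 again stood apart, below siNC, while the other knockdown libraries lay above. *NPC2*, the soluble partner of NPC1, was at 64.7% of its siNC mean in siTEAD1/2/3/4, but at 96.8% in siHHEX and 97.7% in siYAP/TAZ. *PPT1*, which removes palmitate from proteins, had log2 fold changes of -0.10 and 0.19.

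Among the 5 membrane proteins, 1 was lower in siHHEX and another was lower in siYAP/TAZ. *LAMP2* encodes a heavily glycosylated protein of the lysosomal membrane that serves in fusion with autophagosomes (chromosome X, 120426148 to 120469365). It was at 6.21 and 6.58 FPKM in siNC, 3.80, 4.62 and 3.19 FPKM in siHHEX, 5.82 and 6.71 FPKM in siYAP/TAZ and 5.81 FPKM in siTEAD1/2/3/4. Only the siHHEX libraries were low, at a mean of 60.5% of siNC. Its log2 fold change in siHHEX was -0.61 ± 0.150 (limma adjusted p = 0.0172, between 0.00546 and 0.748 over 14 alternatives, past the threshold in 9), against -0.03 in siYAP/TAZ, and the difference between the knockdowns, -0.58, passed the test (adjusted p = 0.0164, between 0.0056 and 0.811 over 14 alternatives, past the threshold in 11). The GC and length correction changed it to 0.04 (adjusted p = 0.811). *SCARB2* encodes LIMP-2, the receptor that carries glucocerebrosidase to lysosomes (chromosome 4, 76158737 to 76234536). It was at 11.4 and 12.1 FPKM in siNC, 11.1, 8.03 and 5.70 FPKM in siHHEX, 15.6 and 11.4 FPKM in siYAP/TAZ and 9.54 FPKM in siTEAD1/2/3/4. It passed in neither knockdown, with log2 fold changes of -0.50 (adjusted p = 0.114) and 0.17 (adjusted p = 0.699), but the difference between them, -0.67 ± 0.230, did (limma adjusted p = 0.0434, between 0.0216 and 0.891 over 14 alternatives, past the threshold in 2).

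*MCOLN1* encodes TRPML1, the channel that releases calcium from lysosomes (chromosome 19, 7522624 to 7534009). It was at 12.9 and 12.5 FPKM in siNC, 12.7, 11.9 and 11.7 FPKM in siHHEX, 8.66 and 8.97 FPKM in siYAP/TAZ and 10.8 FPKM in siTEAD1/2/3/4. Both siYAP/TAZ libraries were below all the others. The log2 fold change in siYAP/TAZ was -0.49 ± 0.125 (limma adjusted p = 0.0459, between 0.0232 and 0.320 over 14 alternatives, past the threshold in 7), and the difference between siHHEX and siYAP/TAZ was 0.42 (adjusted p = 0.0201, between 0.00623 and 0.475 over 14 alternatives, past the threshold in 6). *LAMP1* was close to its siNC level, at log2 fold changes of 0.01 and -0.09, although it was at 77.7% of its siNC mean in siTEAD1/2/3/4. *CD63*, a tetraspanin of late endosomes, was at 83.3 and 81.1 FPKM in siNC and at 105, 93.0 and 101 FPKM in siHHEX, all above siNC, with a log2 fold change of 0.27 (adjusted p = 0.0801). With the GC and length correction, the siHHEX log2 fold change of *CD63* was -7.3e-05.

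Of the 5 V-ATPase genes, 1 was higher in siHHEX and 0 passed in siYAP/TAZ in limma (0 also at an unadjusted p under 0.05). *ATP6V0D1* encodes subunit d of the membrane sector (chromosome 16, 67438014 to 67481181). It was at 23.4 and 23.8 FPKM in siNC, 32.2, 32.4 and 35.6 FPKM in siHHEX, 22.5 and 24.9 FPKM in siYAP/TAZ and 28.1 FPKM in siTEAD1/2/3/4. The siHHEX libraries were all above every other library, and those of siYAP/TAZ lay on both sides of siNC. The log2 fold change in siHHEX was 0.48 ± 0.113 (limma adjusted p = 0.0152, between 0.00979 and 0.502 over 14 alternatives, past the threshold in 10), and the difference from siYAP/TAZ, 0.48, passed the test (adjusted p = 0.0126, between 0.00445 and 0.276, past the threshold in 10). *ATP6V1A*, the catalytic subunit of the cytoplasmic sector, was at 20.9 and 20.4 FPKM in siNC, 12.0, 18.9 and 15.1 FPKM in siHHEX, 22.9 and 16.7 FPKM in siYAP/TAZ and 21.4 FPKM in siTEAD1/2/3/4. All siHHEX libraries were below siNC, but their spread was wide and the log2 fold change of -0.43 did not pass (adjusted p = 0.109). *ATP6AP1*, an accessory protein of the pump, was at 28.4 and 29.8 FPKM in siNC, 37.3, 27.9 and 37.4 FPKM in siHHEX, 29.1 and 27.9 FPKM in siYAP/TAZ and 28.4 FPKM in siTEAD1/2/3/4. This gene had siHHEX libraries on both sides of siNC. With the GC and length correction, the siHHEX log2 fold change was -0.02 for *ATP6V1A* and -0.11 for *ATP6AP1*, in place of -0.43 and 0.21. *ATP6V1H* and *ATP6V1B2* had log2 fold changes of -0.07 and -0.0049 in siHHEX and of -0.12 and 0.14 in siYAP/TAZ.

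Among the 4 tested autophagy genes, 1 was higher in siHHEX and another was higher in siYAP/TAZ. *SQSTM1*, the cargo receptor, is on chromosome 5 from 179806398 to 179838078. It was at 96.3 and 95.6 FPKM in siNC, 149, 116 and 149 FPKM in siHHEX, 124 and 145 FPKM in siYAP/TAZ and 110.1 FPKM in siTEAD1/2/3/4. All 6 knockdown libraries were above siNC. The log2 fold change was 0.51 ± 0.135 in siHHEX (limma adjusted p = 0.0223, between 0.0042 and 0.378 over 14 alternatives, past the threshold in 6) and 0.48 ± 0.148 in siYAP/TAZ (adjusted p = 0.0753). *WIPI1*, whose protein binds phosphoinositides on forming autophagosomes (chromosome 17, 68420948 to 68457513), was at 1.61 and 1.98 FPKM in siNC, 1.53, 1.77 and 1.39 FPKM in siHHEX, 3.45 and 5.02 FPKM in siYAP/TAZ and 2.62 FPKM in siTEAD1/2/3/4. The siYAP/TAZ libraries were highest, at 236% of the siNC mean, and siHHEX overlapped siNC. The log2 fold change was 0.89 ± 0.173 in siYAP/TAZ (limma adjusted p = 0.0207, between 0.0165 and 0.188 over 14 alternatives, past the threshold in 10) and -0.13 in siHHEX. The difference between siHHEX and siYAP/TAZ, -1.02 ± 0.158, passed the test in all 14 alternatives (adjusted p = 0.00439, between 0.00371 and 0.0397).

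*GABARAPL1*, of the LC3 and GABARAP family, was at 6.49 and 6.80 FPKM in siNC, 12.3, 5.74 and 7.57 FPKM in siHHEX, 8.11 and 11.7 FPKM in siYAP/TAZ and 9.54 FPKM in siTEAD1/2/3/4. Replicates spread widely, at log2 changes of 0.80, -0.18 and 0.17 in siHHEX and 0.25 and 0.74 in siYAP/TAZ. Thus siHHEX lay on both sides of siNC and siYAP/TAZ only above it. The log2 fold changes of 0.26 and 0.49 did not pass (limma adjusted p = 0.441 and 0.290). *MAP1LC3B*, the gene for LC3B, had log2 fold changes of -0.11 and -0.15, and is uncertain because of its near-identical copy *MAP1LC3B2*. The regulators did not pass either (limma, 0 at an unadjusted p under 0.05). *TFEB* was at 1.09 and 0.729 FPKM in siNC, 0.876, 1.04 and 1.39 FPKM in siHHEX, 0.887 and 0.602 FPKM in siYAP/TAZ and 1.24 FPKM in siTEAD1/2/3/4. *TFE3* was at 3.73 and 4.17 FPKM in siNC, 4.91, 4.10 and 5.63 FPKM in siHHEX, 4.15 and 5.31 FPKM in siYAP/TAZ and 4.54 FPKM in siTEAD1/2/3/4. Both overlapped siNC in siHHEX and in siYAP/TAZ.

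**Figure D2:**
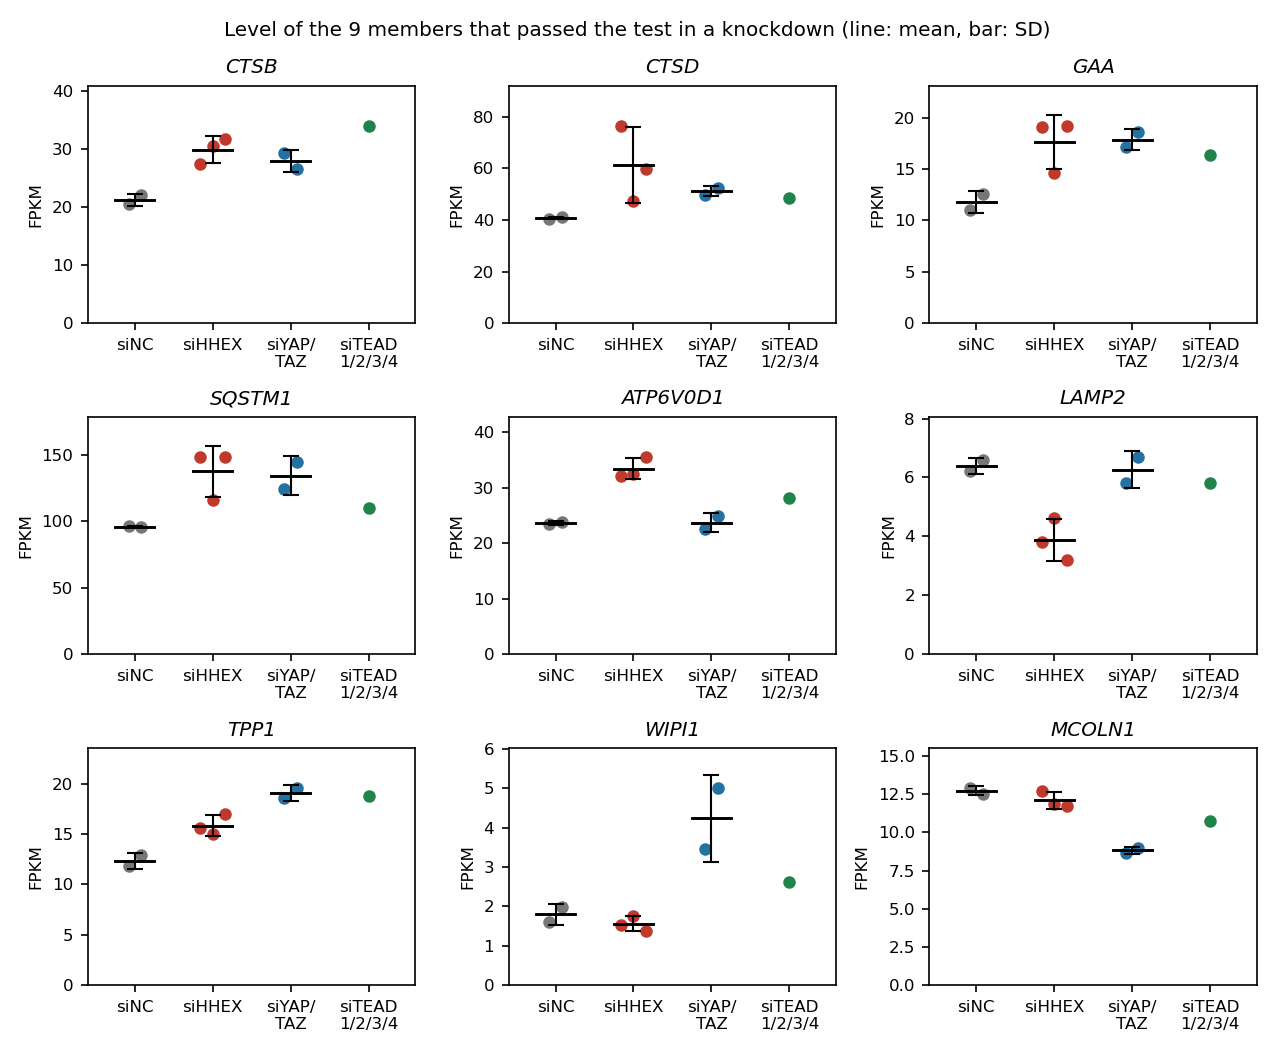
FPKM of the 9 members that passed the test in siHHEX or siYAP/TAZ, by group on the x axis, with a point per library, a line at the mean and a bar of 1 SD (siTEAD1/2/3/4 is 1 library). *CTSB*, *CTSD*, *TPP1*, *GAA* and *SQSTM1* were above siNC in every knockdown library, *LAMP2* was low in siHHEX only, and *WIPI1* was high and *MCOLN1* low in siYAP/TAZ.

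Between the knockdowns themselves, 2 members were higher in siHHEX than in siYAP/TAZ (*MCOLN1* and *ATP6V0D1*), where 13.5% of all genes were, and 3 were lower (*LAMP2*, *SCARB2* and *WIPI1*), where 25.9% of all were. The siNC libraries enter this contrast only through the shared estimate of the spread, but without siNC 1 or without siNC 2 the counts were 1 higher (*ATP6V0D1*) and 2 lower (*LAMP2* and *WIPI1*), with 27.9% of all genes passing in either direction. Under median scaling, 3 members were higher and 2 lower, since *CD63* passed and *SCARB2* did not. Of all tested genes, 2508 were then higher and 1385 lower, and the higher share of all calls went from 34.2% to 64.4%. The median change of all genes moved from -0.13 to 0.047. Without siYAP/TAZ 1, only *LAMP2* and *WIPI1* passed (27.5% of all genes), and without siYAP/TAZ 2 only *WIPI1* (9.61%), while leaving out siHHEX 2 gave 5 higher and 3 lower, when 48.3% of all genes passed. Leaving out siHHEX 1 gave 1 and 3 (27.8%), and leaving out siHHEX 3 gave 2 and 2 (30.6%). By the study's criterion, *WIPI1* was the only member to pass (1.52% of all genes).

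The change in siHHEX moved with the GC content of the transcript. The canonical transcripts of the members had a median GC content of 51.2%, from 36.0% in *LAMP2* to 64.8% in *GAA*, against 49.1% for all tested genes. Of the 21 members above that last value, 18 had a siHHEX log2 fold change above 0, and of the 13 others, 11 had one below 0. Across the 34 members, which share libraries and are not independent, Spearman's rho between GC content and the siHHEX change was 0.717, and over the 10617 tested genes with a GC content it was 0.730. In siYAP/TAZ, the same values were 0.187 and 0.000808, and in siTEAD1/2/3/4 they were 0.363 and 0.298. Over all genes it was 0.679, 0.598 and 0.755 in siHHEX 1, 2 and 3, and 0.211 for siNC 2 against siNC 1. *LAMP2*, *ASAH1* (39.7% GC), *ATP6V1A* (40.5%) and *SCARB2* (42.0%), the members with the lowest GC content, thus had the lowest siHHEX values, and *GAA* and *CTSD* (63.6%) the highest. Against this order, *MCOLN1* (60.9%) and *TFEB* (64.7%) had siHHEX log2 fold changes of -0.07 and 0.14.

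**Figure D3:**
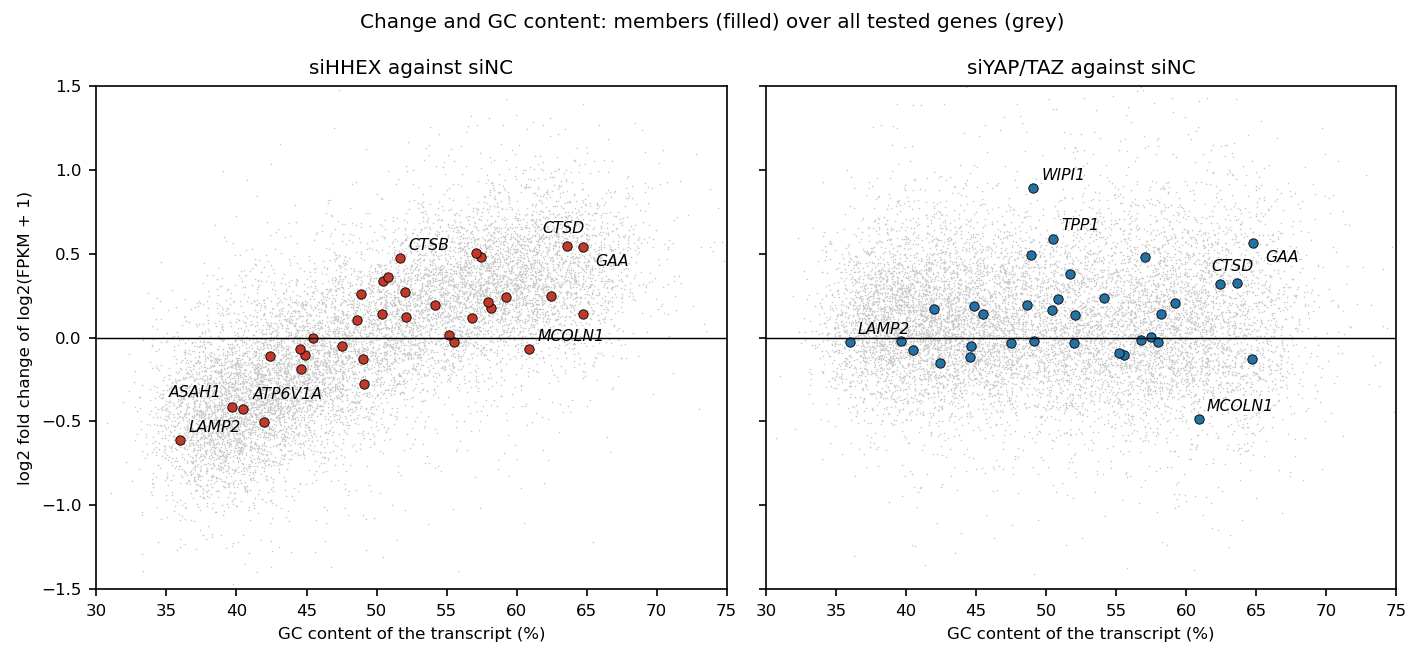
Log2 fold change against the GC content of the transcript (%) for the 34 members (filled points) over all tested genes (grey), in siHHEX (left) and siYAP/TAZ (right), with axes from 30 to 75% and reaching 1.5 in either direction. The siHHEX points climb from *LAMP2* to *GAA* with rho 0.717, whereas those of siYAP/TAZ have a rho of 0.187.

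The GC and length correction took from each library its smooth trend with these properties over all genes. After it, the members' rho with GC content in siHHEX was -0.150, and their median log2 fold change was -0.0085. In siHHEX, 1 member was then higher, *CTSB* (3.56% of all genes), and 1 was lower, *MCOLN1* (3.19%). *CTSB* went from 0.47 to 0.42 (limma adjusted p = 0.0439), whereas *LAMP2* went from -0.61 to -0.09 (adjusted p = 0.595), *CTSD* from 0.55 to 0.14 (0.633), *GAA* from 0.54 to 0.21 (0.352), *ATP6V0D1* from 0.48 to 0.13 (0.407) and *SQSTM1* from 0.51 to 0.25 (0.210). *MCOLN1* went from -0.07 to -0.44 (adjusted p = 0.0493). In siYAP/TAZ the same members passed before and after, with *TPP1* and *WIPI1* higher (5.32% of all genes) and *MCOLN1* lower (6.15%). Their log2 fold changes were 0.52 (adjusted p = 0.0264), 0.83 (0.0185) and -0.57 (0.0232). Between the knockdowns, *WIPI1* was the only member to pass after the correction (3.35% of all genes were lower and 5.52% higher), at -1.004 (adjusted p = 0.0134), while *LAMP2*, *SCARB2*, *MCOLN1* and *ATP6V0D1* were at 0.04, -0.21, 0.13 and 0.20. Whether GC content itself is the cause of the siHHEX values was not tested.

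**Figure D4:**
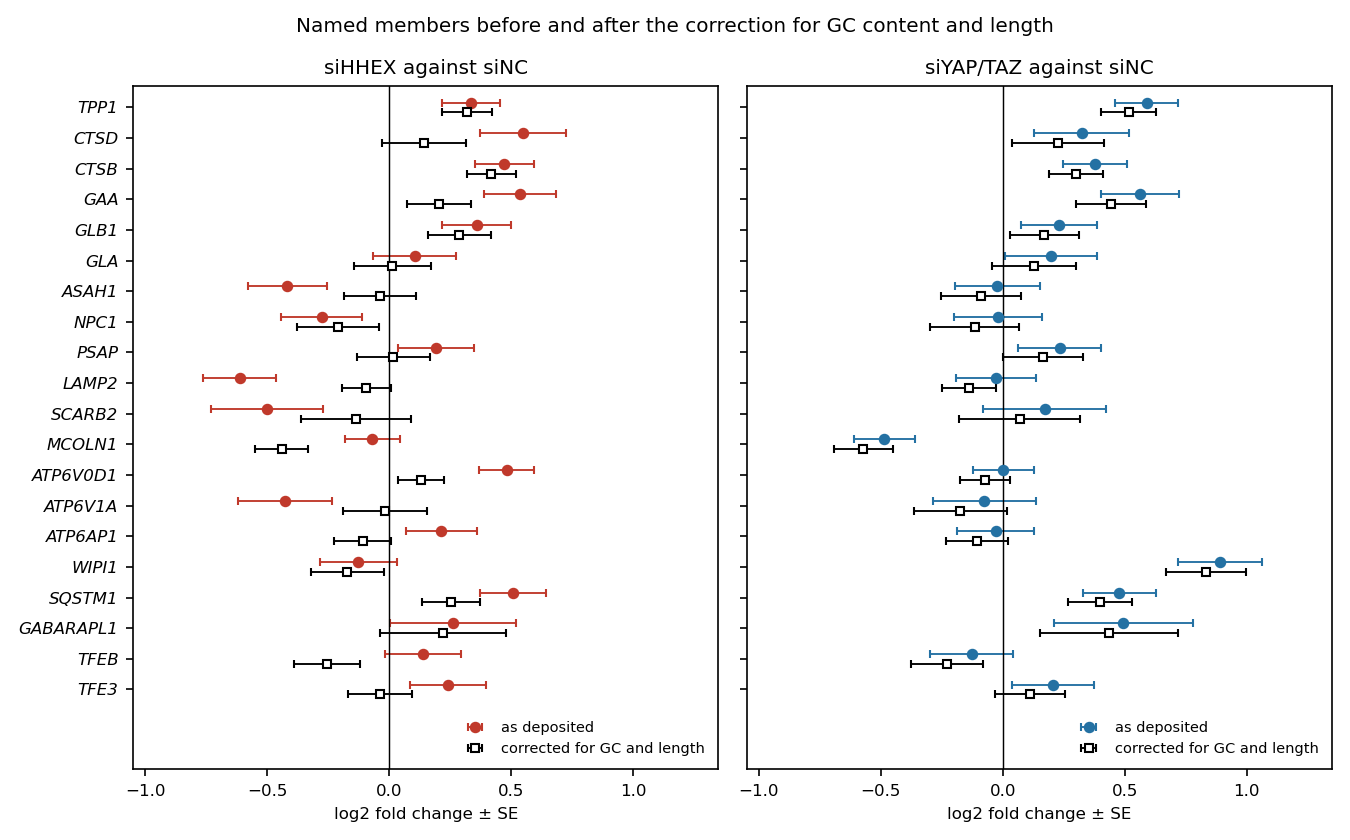
Log2 fold change with its SE for the 20 named members in siHHEX (left) and siYAP/TAZ (right), as deposited (filled) and after the GC and length correction (open). In siHHEX, the values of *LAMP2*, *CTSD*, *GAA* and *ATP6V0D1* move towards 0 and that of *MCOLN1* moves from -0.07 to -0.44, and the siYAP/TAZ values move little.

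The 166 other genes of these pathways, in 6 lists (hydrolases and partners, membrane proteins and sorting receptors, V-ATPase subunits, autophagy machinery, mTORC1 and TFEB control, and fusion), were counted in the same way. Of the 144 tested, 26 were higher and 14 lower in siHHEX (18.1% and 9.72%, against 16% and 16.9% of all genes). In siYAP/TAZ, 7 were higher and 2 lower (4.86% and 1.39%, against 6.15% and 2.13%). Median scaling made these counts 33 and 11 in siHHEX and 1 and 3 in siYAP/TAZ, against 2210 and 1440 and 333 and 345 of all 10677 tested genes. After the GC and length correction they were 2 and 4 in siHHEX, where 3.56% of all genes were higher and 3.19% lower. They were 4 and 6 in siYAP/TAZ, where these shares of all genes were 5.32% and 6.15%. Without siNC 1 or siNC 2, only 1 passed in siHHEX and 0 in siYAP/TAZ (limma, 15 and 20 at an unadjusted p under 0.05), and without siYAP/TAZ 2, 0 passed in siYAP/TAZ (21). Leaving out siHHEX 2 gave 36 higher and 20 lower in siHHEX and 15 and 3 in siYAP/TAZ, when 45.3% and 12.3% of all genes passed in either direction. Leaving out siHHEX 1 gave 14 and 10 and 2 and 1 (19.8% and 5.53% of all genes). Leaving out siHHEX 3 gave 16 and 9 and 13 and 3 (23.5% and 11.7%). Of the other V-ATPase subunits in siHHEX, 5 of 14 were higher and 3 lower. Of the other lysosomal hydrolases and partners, 2 of 27 were higher and 2 lower. The membrane proteins and sorting receptors had 4 of 25 higher and 2 lower, the autophagy machinery 5 of 38 and 4, mTORC1 and TFEB control 7 of 27 and 2, and fusion 3 of 13 and 1. After the correction, the V-ATPase list and that of mTORC1 and TFEB control had 1 higher and 1 lower each, the hydrolases and the autophagy machinery 0 higher and 1 lower each, and the other lists 0.

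The highest in siHHEX was *LAMTOR4*, a subunit of the Ragulator complex that anchors mTORC1 regulators on the lysosome. It was at 20.7 and 20.4 FPKM in siNC, 57.1, 45.7 and 57.1 FPKM in siHHEX, 29.1 and 27.1 FPKM in siYAP/TAZ and 28.3 FPKM in siTEAD1/2/3/4. Every siHHEX library was far above all others, with a log2 fold change of 1.33 ± 0.130 (limma adjusted p = 0.00201, between 0.00206 and 0.0443 over 14 alternatives, past the threshold in all 14), and 0.74 after the GC and length correction (adjusted p = 0.0133). *ATP6V1F*, a V-ATPase subunit of the cytoplasmic sector, was at 75.2 and 86.1 FPKM in siNC and 166, 138 and 156 FPKM in siHHEX, with 0.92 before and 0.45 after the correction (adjusted p = 0.0467, between 0.00247 and 0.0957 over the alternatives). *RILP*, a partner of RAB7, was at 3.08 and 4.13 FPKM in siNC and 7.08, 7.18 and 7.83 FPKM in siHHEX, with 0.87 before and 0.40 after it (adjusted p = 0.0907, between 0.00423 and 0.112). Each of these had every siHHEX library above both siNC libraries. Among the lowest, *ATP6V1C1* of the V-ATPase was at 23.1 and 22.0 FPKM in siNC and 9.11, 17.4 and 10.3 FPKM in siHHEX (log2 fold change -0.88). *PIK3R4*, a subunit of the autophagy lipid kinase complex, was at 9.77 and 9.96 FPKM in siNC and 5.13, 7.55 and 5.04 FPKM in siHHEX (-0.67). Neither passed after the correction.

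In siYAP/TAZ, the highest were *SESN1*, a sestrin that restrains mTORC1, *NBR1*, an autophagy receptor of the same kind as SQSTM1, and *ULK1*, the kinase that starts autophagy. *SESN1* was at 5.74 and 5.24 FPKM in siNC and at 9.33 and 11.6 FPKM in siYAP/TAZ (log2 fold change 0.82, limma adjusted p = 0.0359). *NBR1* went from 7.14 and 7.11 FPKM to 10.5 and 16.1 FPKM (0.79, adjusted p = 0.0372), and *ULK1* from 2.33 and 2.72 FPKM to 3.95 and 6.33 FPKM (0.77, adjusted p = 0.0382). In each of them siYAP/TAZ 2 was the higher library, as it was for *WIPI1*. After the correction *NBR1* passed (adjusted p = 0.0428), and *SESN1* and *ULK1* did not (0.0529 and 0.0763). Over the 14 alternatives the adjusted p lay between 0.0169 and 0.227 for *NBR1*, between 0.0218 and 0.244 for *SESN1* and between 0.0170 and 0.265 for *ULK1*. The 2 lower genes were *RHEB*, the GTPase that activates mTORC1, and *ATP6V0B*, of the V-ATPase membrane sector. *RHEB* was at 43.5 and 38.7 FPKM in siNC, 27.8 and 23.5 FPKM in siYAP/TAZ. The siHHEX libraries, at 29.1, 28.4 and 27.3 FPKM, were also below siNC. It had a siYAP/TAZ log2 fold change of -0.66 (limma adjusted p = 0.0223) and -0.72 after the correction (adjusted p = 0.0126, between 0.0126 and 0.237 over the alternatives). *ATP6V0B* was at 76.1 and 80.5 FPKM in siNC, 57.9 and 51.2 FPKM in siYAP/TAZ, whereas the siHHEX libraries were at 112, 104 and 128 FPKM. By these levels *ATP6V0B* was below siNC in siYAP/TAZ and above it in siHHEX, as every siHHEX library was for 33.1% of all tested genes. Its transcript has 58.2% GC, and its siHHEX change is given here without a test or the correction. The siYAP/TAZ log2 fold change was -0.52 (limma adjusted p = 0.0469) and -0.62 after the correction (adjusted p = 0.0139, between 0.0139 and 0.310 over the alternatives).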

How the data were processed

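RNA of HCT-116 cells was extracted with Trizol and sequenced on an Illumina HiSeq instrument. The authors deposited 1 FPKM value per gene for each of the 8 libraries, without scaling between libraries as far as the sources used here state. The submitters' processing notes name Trimmomatic 0.36, HISAT2 2.0.5, Cufflinks 2.2.1 and HTSeq 0.9.1 without their roles, and the study's methods name DESeq for its differential expression. The genome build and annotation of the RNA-seq are not given in the sources used here. The number of reads is unknown. The spacing of the low values put each library between 0.947 and 1.07 times the depth of siNC 1, and the values summed to between 331663 and 383423 FPKM.

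Groups and replicate numbers came from the labels. A gene had to reach 1 FPKM in 2 or more libraries. The tests were made in limma 3.58.1 (R 4.3.3, with a mean-variance trend) on log2(FPKM + 1), in 1 fit of 8 libraries with 4 groups and no covariate, with Benjamini-Hochberg adjustment. The siTEAD1/2/3/4 library had no replicate, and a change past 1.5-fold was counted. GC content, length and coordinates came from GENCODE 44 (GRCh38), matched by symbol for 10617 tested genes (99.4%), and their trend was fitted in each library with natural splines of 4 degrees of freedom. Tables were made with Python 3.11.15. The filter, the pseudocount, the fit, the replicate block, the scaling, the correction and each replicated library were varied.

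In simulated data with 200 changed genes among 10617, the siHHEX comparison recovered 74.7% of log2 changes of 1 and 8.16% of changes of 0.5, and the siYAP/TAZ comparison 69% and 12.2%, with 2 and 4 false calls. With a straight GC trend added equally to every simulated library of the knockdown, changes of 0.5 were recovered at 28% and 25%, with 57 and 21 false calls. After the correction they were recovered at 15% and 17%, with 3 and 1. The trend was set by hand, whereas the real rho with GC content was 0.598 to 0.755 in the siHHEX libraries and 0.000808 in siYAP/TAZ. These false calls are therefore not an estimate of those in the real comparisons. The members and the gene lists were chosen with earlier results of these data known. Values by library are given for *TFEB*, *TFE3* and, in each of the 6 other roles, the 3 tested members with the largest absolute log2 fold change in siHHEX or siYAP/TAZ, together with the 3 highest and 3 lowest passing genes of the other lists. One gene that this rule names is not reported here. *CD63* is given in addition, after its values were seen. No column of another sample was in the files.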

Additional observations from a re-analysis of the deposited data

Results flagged for a closer look

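For 5 members, the changes in the 2 replicated knockdowns differed in a test of the difference itself (siHHEX minus siYAP/TAZ, limma, adjusted over all tested genes). Of the 34 tested members, 5.88% were higher and 8.82% lower in siHHEX, smaller shares than the 13.5% and 25.9% of all tested genes. The share of all genes without overlap between these knockdowns was not counted. *WIPI1* differed by -1.02 on the log2 scale, with all 3 siHHEX libraries below both siYAP/TAZ libraries. *SCARB2* differed by -0.67, with all siHHEX libraries below both siYAP/TAZ libraries. *LAMP2* differed by -0.58, again with no overlap. *ATP6V0D1* differed by 0.48 and *MCOLN1* by 0.42, with every siHHEX library above both siYAP/TAZ libraries. After the correction for GC content and transcript length, only *WIPI1* of these 5 still passed, at -1.004, when 5.52% of all genes were higher and 3.35% lower. *SCARB2* was then at -0.21, *LAMP2* at 0.04, *ATP6V0D1* at 0.20 and *MCOLN1* at 0.13.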

How the results depend on the processing

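The limits are the 2 siNC libraries, the single siTEAD1/2/3/4 library, the lack of read counts and the low recovery of simulated log2 changes of 0.5. This recovery was 8.16% in siHHEX and 12.2% in siYAP/TAZ without a GC trend. With a GC trend set by hand it was 28% and 25%, with 57 and 21 false calls in place of 2 and 4. That trend was not matched to the one in these libraries. The numbers of members higher and lower in siHHEX, 5 and 1, became 2 and 0 with no filter on low values (10 at an unadjusted p under 0.05, and 11.7% of all genes passed in either direction), 8 and 1 with median scaling, 1 and 1 once GC content and length were corrected for (the correction), and 0 and 0 under the study's criterion. In siYAP/TAZ, 2 and 1 became 1 and 0 with no filter (7 at an unadjusted p under 0.05, and 1.97% of all genes passed in either direction), 6 and 1 in a fit of only the groups compared (16.5% of all genes), 1 and 1 with median scaling, and 0 and 0 under the study's criterion. Between the knockdowns, 2 and 3 became 1 and 2 with only the groups compared (28.0% of all genes), 0 and 1 with the correction and 0 and 1 under the study's criterion. In siTEAD1/2/3/4, the 1 member past 1.5-fold upwards became 2 with a pseudocount of 0.1 and 0 with the correction. The members' median became -0.0085 in siHHEX with the correction, 0.032 with median scaling and 0.061 with the correction in siYAP/TAZ, and 0.055 and 0.027 in siTEAD1/2/3/4. The wider lists, 26 and 14 in siHHEX and 7 and 2 in siYAP/TAZ, became 2 and 4 in siHHEX with the correction, 1 higher in siYAP/TAZ with median scaling, and 4 and 6 there with the correction. Of all genes, 3.56% were higher and 3.19% lower in siHHEX with the correction, and 5.32% and 6.15% in siYAP/TAZ. With median scaling, the number of all genes higher in siYAP/TAZ went from 657 to 333. The causes of these shifts were not tested.

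Same-numbered libraries did not deviate together (correlations of -0.037, -0.025 and -0.043 between groups, over replicates 1 and 2). These replicates also differ in siRNA in siHHEX and in siYAP/TAZ, so the correlations cannot show whether same-numbered libraries shared a culture or a batch. With the replicate number as a block, 1 member was higher and 1 lower in siHHEX (6 at an unadjusted p under 0.05), 2 were higher and 0 lower in siYAP/TAZ (6), and the wider lists in siHHEX had 14 higher and 9 lower. Of all genes, 19.3% passed in siHHEX and 9.66% in siYAP/TAZ with the block. With the block and the correction, 0 members passed in siHHEX (3 at an unadjusted p under 0.05, and 1.55% of all genes passed) and 0 were higher and 1 lower between the knockdowns (1.92% of all genes). *GLA* (-0.0033), *ASAH1* (0.045) and *SCARB2* (0.022) changed sign in siHHEX under the block with the correction.

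*ATP6AP1* (-0.11), *TFEB* (-0.26) and *TFE3* (-0.037) changed sign in siHHEX with the correction, and also with the block and the correction (-0.13, -0.28 and -0.084). *ATP6V0D1* in siYAP/TAZ changed sign with median scaling (-0.10), with the correction (-0.074) and with both block and correction (-0.074), and *MCOLN1* in siHHEX did with median scaling (0.0020). Of the other members, *CTSA* (-0.19), *CTSZ* (-0.21), *GRN* (-0.14), *LAMP1* (-0.20) and *CD63* (-7.3e-05) went below 0 in siHHEX with the correction. *PPT1* (0.067), *ATP6V1H* (0.10), *ATP6V1B2* (0.17) and *MAP1LC3B* (0.15) went above 0 there. None of these values passed the test.

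Leaving out 1 library at a time, the members higher in siHHEX ranged from 0 to 10 and those lower from 0 to 2. The ranges were 0 to 4 and 0 to 1 in siYAP/TAZ, 0 to 5 and 1 to 3 between the knockdowns, and 1 to 2 and 0 to 1 past 1.5-fold in siTEAD1/2/3/4. The members' median ranged from 0.028 to 0.184 in siHHEX, from 0.078 to 0.135 in siYAP/TAZ and from 0.061 to 0.121 in siTEAD1/2/3/4. The wider lists ranged from 1 to 36 higher and 0 to 20 lower in siHHEX, and from 0 to 15 and 0 to 3 in siYAP/TAZ. Where only 1 library of a group was left, it was assumed to vary like the other groups. Changes of sign in such fits were seen for these log2 fold changes, none of which passed the test: in siHHEX for *GLA* (-0.036 to 0.269) and *GABARAPL1* (-0.0075 to 0.482), and in siYAP/TAZ for *ASAH1* (-0.140 to 0.096), *NPC1* (-0.187 to 0.147), *LAMP2* (-0.116 to 0.061), *SCARB2* (-0.039 to 0.382), *ATP6V0D1* (-0.066 to 0.071), *ATP6V1A* (-0.293 to 0.142), *ATP6AP1* (-0.061 to 0.0026) and *TFEB* (-0.263 to 0.0075).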
